A study of Homo sapiens with 8 samples.

Results

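The genes described here encode the factors of the TAL1 complex, which drives a large group of T-cell acute lymphoblastic leukemias (T-ALL). The rule named 10 genes, TAL1, LYL1, LMO1, LMO2, LDB1, GATA3, RUNX1, MYB, TCF3 and TCF12, and 8 of them were analysed among the 13453 genes of the deposited expression table. LMO2 and TCF3 were not analysed here. RNA-seq was performed on 8 libraries of Jurkat, an established human T-ALL cell line. Knockdown used lentiviral shRNA with puromycin selection, in sh-Ctrl cells carrying a non-targeting shRNA and in sh-CBAP cells, and these 4 libraries are called the shRNA set here. The other 4 libraries, called the CRISPR set, came from CBAP-KO cells made with CRISPR/Cas9 and from CBAP-reconstituted cells, which are CBAP-KO cells given the CBAP gene back. According to the study's text, the CBAP-KO cells expressed GFP and the reconstituted cells a fusion of CBAP with GFP. Knockout clones were grown from single sorted cells, so a difference between clones and an effect of CBAP cannot be told apart in this set, and the CRISPR set has no parental control among the libraries analysed. The shRNA cells were stable clones by the study's text, and which CBAP shRNA they carried is not given in the sources used here. In the shRNA set, a difference between lines or another effect of the shRNA also cannot be told apart from an effect of CBAP. Each condition had 2 libraries.

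TAL1 is a basic helix-loop-helix factor that normally acts in blood stem cells and red cell precursors and is switched on abnormally in many T-ALL cases. It pairs with an E protein such as TCF12 or TCF3 to bind E-box motifs, and LMO1 or LMO2 together with LDB1 bridge this pair to GATA3, RUNX1 and MYB at shared enhancers. In T-ALL cells these factors are known to bind the enhancers of their own genes, TAL1 included.

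The promoters of TAL1, LYL1 and RUNX1 are shown because their changes differed between the sets in the main test described below. MYB, listed at 0 in 1 library, did not pass that test. Each sequence holds the 250 bases before a transcription start of RefSeq (build GRCh38.p14, while the expression values rest on hg19), read 5′ to 3′ on the gene's own strand. Both strands were searched for the E-box letters CANNTG, the GATA-factor letters GATAA, the RUNX letters TGTGGT, the MYB letters AACGG and the ETS letters GGAAG, and capitals mark the matches. The TAL1 window is chr1:47232336-47232585, the LYL1 window is chr19:13102859-13103108 and the RUNX1 window is chr21:34888700-34888949, each on the minus strand.
TAL1: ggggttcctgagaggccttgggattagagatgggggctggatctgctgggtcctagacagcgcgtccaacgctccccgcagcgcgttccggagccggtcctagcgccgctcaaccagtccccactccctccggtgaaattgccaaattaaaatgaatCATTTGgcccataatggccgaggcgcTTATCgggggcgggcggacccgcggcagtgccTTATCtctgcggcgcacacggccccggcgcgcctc
LYL1: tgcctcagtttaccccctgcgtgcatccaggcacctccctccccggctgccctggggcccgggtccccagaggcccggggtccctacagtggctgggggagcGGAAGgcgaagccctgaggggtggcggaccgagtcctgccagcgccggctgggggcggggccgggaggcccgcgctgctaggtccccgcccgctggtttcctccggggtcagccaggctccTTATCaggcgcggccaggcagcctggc
RUNX1: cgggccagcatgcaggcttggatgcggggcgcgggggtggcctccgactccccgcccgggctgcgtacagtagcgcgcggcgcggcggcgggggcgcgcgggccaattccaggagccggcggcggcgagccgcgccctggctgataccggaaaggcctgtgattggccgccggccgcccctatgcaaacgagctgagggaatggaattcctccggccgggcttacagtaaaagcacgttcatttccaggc
The TAL1 window shown held 1 E-box and 2 GATAA matches, here as TTATC on the reverse strand. RefSeq gives TAL1 a second start, whose window (chr1:47231716-47231965, not shown) held 0 E-box and 0 GATAA matches but 3 RUNX and 3 ETS matches. The LYL1 window held 1 GATAA and 1 GGAAG match, and the RUNX1 window none of the 5 motifs. No other start of RUNX1 was searched, so any promoter elsewhere in this long gene is not covered. Of 35116 promoter windows of this length, 61.8% held the E-box letters, 20.4% the GATA-factor letters, 11.0% the RUNX letters, 16.5% the MYB letters and 65.1% the ETS letters. The matches are letters in a window and were not measured as binding.

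Expression is given as FPKM, fragments scaled to transcript length and to the number mapped, so levels of different genes can be compared per length. The sequencing depth is unknown, and the summed FPKM ranged from 362082 to 434742 per library. Of the genes, 710 were listed at 0 in a library and at 5 FPKM or more in another, and a 0 may therefore be a failed estimate. Pearson's r across genes between the libraries of a condition lay between 0.923 and 0.992. CBAP is encoded by TMEM102, which had 4.07 and 4.74 FPKM in sh-Ctrl and 2.69 and 2.89 in sh-CBAP cells (log2 change -0.51, adjusted p = 0.0287), a call that was lost in 7 of 17 alternative fits. TMEM102 was listed at 0 in all 4 CRISPR-set libraries, which leaves those labels unchecked on the targeted gene. All 10 T-cell markers examined were analysed, and their summed FPKM lay between 1591 and 2542. The CBAP-reconstituted libraries were the lowest for CD5 (0.180 and 0.231 FPKM against 19.7 to 27.4 in the other 6 libraries) and CD7 (39.0 and 38.1 against 124 to 204). They were also the lowest for CD2 (11.0 and 10.3 against 21.2 to 83.7) and CD247 (73.5 and 74.0 against 78.1 to 94.4). For CD3D, CD3E, CD3G, LCK, ZAP70 and PTPRC they lay within the range of the other libraries. Of the markers of other lineages, CD79A (B cells) lay between 0.732 and 22.5 FPKM, and the erythroid markers HBA1 and EPOR summed to between 1.43 and 7.51. The other B-cell and erythroid markers and the myeloid markers were not analysed here. The part of these differences in the results below was not tested. In bulk RNA, fewer cells with a transcript and less of it per cell cannot be told apart.

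Per length, MYB and RUNX1 were the most abundant of the 8 genes on average over the libraries, with means of 139 and 120 FPKM. TCF12 followed with 85.0, TAL1 with 66.6, LDB1 with 48.4, GATA3 with 32.8, LMO1 with 8.22 and LYL1 with 1.77 FPKM. By their mean, MYB stood at percentile 96.7 of the table, TAL1 at 91.5, LMO1 at 46.0 and LYL1 at 21.0.

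Changes were tested with limma on log2(FPKM + 1) across the 11427 genes with a mean of at least 1 FPKM, with Benjamini-Hochberg adjustment over all of them, and a gene was called at an adjusted p under 0.05. All 8 genes passed this filter, LYL1 through its values in sh-CBAP cells. The p-values measure the spread between these libraries, which may be technical. The spread was 1 estimate per gene shared over all conditions, so a comparison within a set also draws on the libraries of the other set. In sh-CBAP against sh-Ctrl cells LYL1 and GATA3 were called, both higher. These were 2 of 8 genes, against 12.3% of all tested genes (3.62% higher and 8.7% lower). In the CRISPR set 5 of 8 were called, against 49.9% of all genes. LMO1, LDB1, GATA3 and RUNX1 were higher in CBAP-KO cells and TAL1 was lower, where 23.9% of all genes were higher and 25.9% lower. The median log2 change of the 8 genes was 0.06 on knockdown, against -0.06 over all tested genes, and 0.36 in the CRISPR set, against 0. The changes differed between the sets for 3 of 8 genes (TAL1, LYL1 and RUNX1), against 33.8% of all genes.

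**Figure D1:**
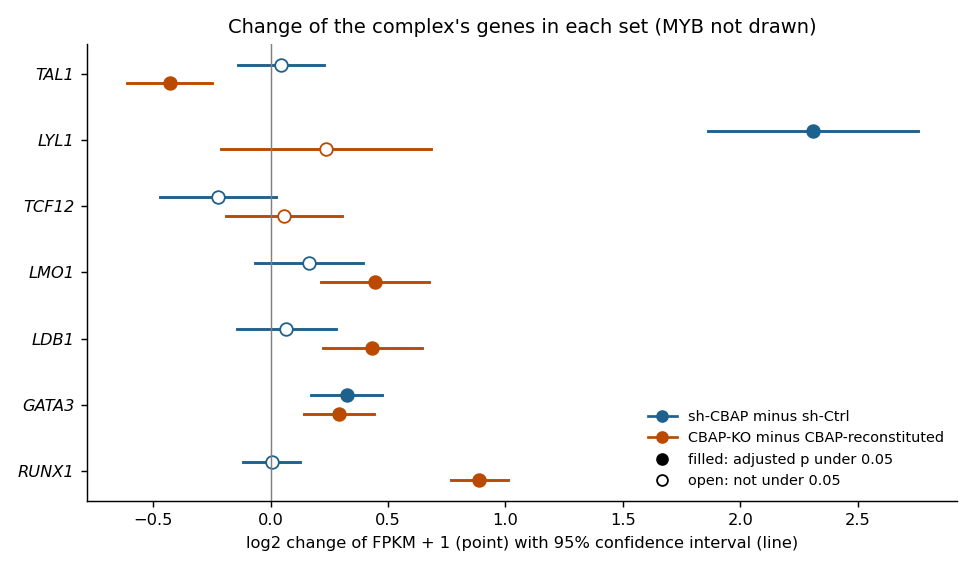
Log2 change of FPKM + 1 (horizontal axis) of 7 genes on knockdown (blue) and in CBAP-KO against CBAP-reconstituted cells (orange), with 95% confidence intervals from limma; filled points passed an adjusted p of 0.05. LYL1 lies at 2.31 on knockdown, RUNX1 at 0.89 and TAL1 at -0.43 in the CRISPR set, and GATA3 is filled in both sets. MYB is not drawn because its listed 0 sets its interval.

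TAL1 (hg19 chromosome 1, 47681962 to 47697897, minus strand), the factor the complex is named for, did not pass the test on knockdown and was lower in CBAP-KO than in CBAP-reconstituted cells. It had 58.6 and 66.0 FPKM in sh-Ctrl, 66.3 and 62.1 in sh-CBAP, 80.7 and 80.1 in CBAP-reconstituted and 61.3 and 57.7 in CBAP-KO cells. The reconstituted libraries were the highest, and the CBAP-KO libraries overlapped with those of sh-Ctrl. TAL1 was 1.35-fold higher in reconstituted than in CBAP-KO cells (log2 change -0.43, SE 0.074, adjusted p = 0.00541), whereas on knockdown the change was 0.04 (95% interval -0.14 to 0.23, adjusted p = 0.738). The difference between these changes was 0.47 (adjusted p = 0.0204). Quantile normalization gave -0.23 in the CRISPR set (adjusted p = 0.0550) and 0.36 for the difference (adjusted p = 0.0526). The difference also missed the threshold without either reconstituted library (0.47 and 0.48, adjusted p = 0.0826 and 0.0785) or without CBAP-KO replicate 2 (0.43, adjusted p = 0.0700).

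LYL1 (chromosome 19, 13209847 to 13213975, minus strand), the closest relative of TAL1 and itself an oncogene of early T-cell leukemias, was near the bottom of the table in 6 libraries and rose in both sh-CBAP libraries. Its FPKM was 0.306 and 0.454 in sh-Ctrl, 0.417 and 0.160 in CBAP-reconstituted and 0.645 and 0.386 in CBAP-KO cells, against 6.75 and 5.02 in sh-CBAP cells. The ratio of the mean FPKM in sh-CBAP to that in sh-Ctrl cells was 15.5, from a low level whose counting error is unknown. The log2 change of FPKM + 1 was 2.31 (SE 0.180, adjusted p = 0.00307), and 0.24 in the CRISPR set (95% interval -0.21 to 0.68, adjusted p = 0.319). The difference between the sets was 2.07 (SE 0.255, adjusted p = 0.00330), and its adjusted p without a filter was 0.00309. LYL1 passed the filter through the sh-CBAP libraries alone, and a filter at a mean of 5 FPKM removed it. Of the summed FPKM of TAL1 and LYL1, LYL1 made up 9.24% and 7.48% in the sh-CBAP libraries and between 0.200% and 1.04% in the other 6. This share does not depend on how a library was scaled. Even in sh-CBAP cells TAL1 remained the more abundant of the pair per length.

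TCF12 (chromosome 15, 57210821 to 57591479, plus strand) encodes HEB, an E protein that pairs with TAL1 or LYL1. Its FPKM was 78.3 and 72.6 in sh-Ctrl, 58.1 and 71.3 in sh-CBAP, 97.9 and 97.7 in CBAP-reconstituted and 101 and 102 in CBAP-KO cells. The conditions did not overlap within either set, and neither change passed the test, with -0.22 on knockdown (95% interval -0.47 to 0.02, adjusted p = 0.199) and 0.06 in the CRISPR set (-0.19 to 0.31, adjusted p = 0.660). The knockdown value was -0.37 without sh-CBAP replicate 2 (adjusted p = 0.0200), and quantile normalization gave 0.28 in the CRISPR set (adjusted p = 0.0264). TAL1 per TCF12 was 0.604 and 0.563 in the CBAP-KO libraries and between 0.749 and 1.14 in the others.

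LMO1 and LDB1, which hold the complex together, were both higher in CBAP-KO than in CBAP-reconstituted cells. LMO1 (chromosome 11, 8245856 to 8290263, minus strand), a LIM-only protein without DNA binding of its own, had 4.15 and 3.88 FPKM in sh-Ctrl, 4.19 and 5.06 in sh-CBAP, 9.78 and 10.5 in CBAP-reconstituted and 14.2 and 14.0 in CBAP-KO cells. Its ranges were apart in all 4 conditions. The change was 0.44 in the CRISPR set (SE 0.093, adjusted p = 0.0107) and 0.16 on knockdown (95% interval -0.07 to 0.39, adjusted p = 0.302). LDB1 (chromosome 10, 103866246 to 103880125, minus strand), the self-associating LIM-binding adaptor, had 39.4 and 39.8 FPKM in sh-Ctrl, 42.3 and 40.9 in sh-CBAP, 47.7 and 47.3 in CBAP-reconstituted and 70.4 and 59.1 in CBAP-KO cells. Its CBAP-KO libraries were the highest and also the farthest apart. LDB1 changed by 0.43 in the CRISPR set (SE 0.085, adjusted p = 0.00874), and its value on knockdown did not pass (0.07, 95% interval -0.14 to 0.28, adjusted p = 0.634). The difference between the sets did not pass for LMO1 (-0.28, adjusted p = 0.152) or LDB1 (-0.36, adjusted p = 0.0654). It passed for LMO1 without sh-CBAP replicate 2 (-0.39, adjusted p = 0.0266), and for LDB1 without CBAP-KO replicate 2 (-0.49, adjusted p = 0.0207) and under quantile normalization (-0.50, adjusted p = 0.0443). In the CRISPR set, the LMO1 call was lost without CBAP-reconstituted replicate 1 (0.40, adjusted p = 0.0779), CBAP-KO replicate 1 (0.44, adjusted p = 0.0557) or CBAP-KO replicate 2 (0.45, adjusted p = 0.0512). That of LDB1 was lost without CBAP-reconstituted replicate 1 (0.44, adjusted p = 0.0525) or replicate 2 (0.43, adjusted p = 0.0558).

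GATA3 (chromosome 10, 8087341 to 8117161, plus strand), the zinc-finger factor required for T-cell commitment, was called higher in both sets. It had 25.5 and 25.9 FPKM in sh-Ctrl and 30.9 and 34.0 in sh-CBAP cells, and 32.2 and 33.5 in CBAP-reconstituted and 40.8 and 40.0 in CBAP-KO cells. The CBAP-deficient libraries lay above their counterparts in each set, as they also did for LMO1 and LDB1. Of all tested genes, 3.62% were called higher on knockdown and 23.9% in CBAP-KO cells. The shares of all genes called higher in both sets, or with this order in both, are not given here. For GATA3, sh-CBAP overlapped with CBAP-reconstituted cells. The log2 change was 0.32 on knockdown (SE 0.060, adjusted p = 0.0278) and 0.29 in the CRISPR set (SE 0.060, adjusted p = 0.0104), with a difference of 0.03 (95% interval -0.18 to 0.24). The knockdown call was lost without either sh-Ctrl library (0.31 and 0.33, adjusted p = 0.0830 and 0.0692), without either reconstituted library (adjusted p = 0.0819 and 0.0820) and without either CBAP-KO library (adjusted p = 0.0666 and 0.0669). The CRISPR-set call was lost without CBAP-reconstituted replicate 1 (0.27, adjusted p = 0.0751) or CBAP-KO replicate 1 (0.28, adjusted p = 0.0606). GATA3-AS1 lies on the opposite strand, and whether the counting used strand is not given in the sources used here.

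RUNX1 (chromosome 21, 36160098 to 37376965, minus strand), a core-binding factor found with TAL1 at many enhancers, had the change of the 8 with the smallest adjusted p in the CRISPR set. It had 83.1 and 87.6 FPKM in sh-Ctrl and 84.9 and 86.2 in sh-CBAP cells, whose ranges overlapped. It had 109 and 106 FPKM in CBAP-reconstituted and 196 and 205 in CBAP-KO cells. RUNX1 was 1.86-fold higher in CBAP-KO cells (log2 change 0.89, SE 0.050, adjusted p = 0.000116), while its knockdown change was 0.00 (95% interval -0.12 to 0.13). The difference between the sets was -0.89 (SE 0.070, adjusted p = 0.000792), and the CRISPR-set change and this difference were called in 19 of 19 alternatives.

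MYB (chromosome 6, 135502446 to 135540311, plus strand), a factor of blood progenitors that acts with TAL1 at its enhancers, had 120 and 116 FPKM in sh-Ctrl cells, 122 and 126 in CBAP-reconstituted and 254 and 269 in CBAP-KO cells. In sh-CBAP cells it had 102 FPKM in replicate 1 and was listed at 0 in replicate 2. The CBAP-KO libraries were 2.11-fold above the reconstituted ones by their means. With the listed 0 kept, the shared estimate of the spread gave MYB an SE of 1.98 and no change was called (1.07, adjusted p = 0.688, in the CRISPR set and -3.55, adjusted p = 0.290, on knockdown). With listed zeros set to missing, an alternative chosen after seeing the data, the CRISPR-set change of 1.07 had an SE of 0.064 (adjusted p = 7.38e-05), the knockdown change was -0.21 (adjusted p = 0.123) and the difference -1.28 (adjusted p = 0.000492). Leaving out sh-CBAP replicate 2 gave the same changes, with adjusted p = 0.000184 in the CRISPR set and 0.000765 for the difference. Leaving out sh-CBAP replicate 1 instead left the listed 0 alone in its condition and gave -6.89 on knockdown and -7.96 for the difference. MYB-AS1 lies on the opposite strand of MYB.

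Ratios between members within a library do not depend on its scaling, and they set the CBAP-KO libraries apart. TAL1 per LDB1 was 0.871 and 0.976 in CBAP-KO cells and between 1.49 and 1.69 in the other 6 libraries. RUNX1 per TAL1 was 3.20 and 3.55 in CBAP-KO cells and between 1.28 and 1.42 in the others. LMO1 per TAL1 was 0.232 and 0.243 in CBAP-KO, 0.121 and 0.131 in CBAP-reconstituted and between 0.0587 and 0.0815 in shRNA-set libraries. In contrast, LMO1 per LDB1 overlapped within the CRISPR set, with 0.205 and 0.221 in reconstituted and 0.202 and 0.237 in CBAP-KO cells.

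The sets also differed in level. LMO1, LDB1, RUNX1, MYB and TCF12 had all 4 CRISPR-set libraries above all 4 shRNA-set libraries, which held for 24.4% of all tested genes. For RUNX1 the sets spanned 83.1 to 87.6 and 106 to 205 FPKM, and for LMO1 3.88 to 5.06 and 9.78 to 14.2. The sets differ in the method, the cells and possibly the processing, which cannot be told apart. When the 4 CBAP-deficient libraries were compared with the 4 CBAP-expressing libraries, limma called 0 of the 8 genes, against 0.621% of all genes. At an unadjusted p under 0.05 there were 0 of the 8, against 21% of all genes. With the set as a covariate 1 of 8 was called, GATA3 (0.31, adjusted p = 0.0215), where 12.3% of all genes were called.

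Over the 8 libraries, which share conditions, LDB1 and RUNX1 (Pearson's r = 0.96), LMO1 and LDB1 (0.90), LMO1 and TCF12 (0.90) and LMO1 and RUNX1 (0.89) were alike. TAL1 had r between -0.26 and 0.19 with the other 7 genes. LYL1 had r = -0.77 with TCF12, where Spearman's rho was -0.52, and LYL1 was low outside the sh-CBAP libraries. For MYB and TCF12 r was 0.43 and rho 0.95, both with the listed 0 of MYB included. Among the 10535 other tested genes without a listed 0, the profiles most like TAL1 were those of SAPCD2 (0.992), ATP6V0D1 (0.991) and the joint entry of C20orf24 and TGIF2 (0.988). For GATA3 they were ZNF391 (0.992), GDPD5 (0.990) and IDS (0.986), and for RUNX1 they were RUNDC1 (0.996), RNF39 (0.995) and ASAP1 (0.994). An r over 0.9 was reached by 341 genes with TAL1, 386 with GATA3 and 1080 with RUNX1. The profiles most like MYB, TPT1-AS1 (0.955), DDX11L2 (0.909) and FAM89B (0.908), were matched with its listed 0 included.

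Known TAL1 target genes of T-ALL cells were called in the CRISPR set for 7 of 7 genes, 2 higher and 5 lower in CBAP-KO cells, with a median log2 change of -0.34 (0 over all genes), where 49.9% of all tested genes were called. On knockdown 2 of 7 were called, TRIB2 higher and ARID5B lower (median -0.22, against -0.06), where 12.3% of all genes were. KIT, a receptor of progenitor cells, had 6.59 and 6.63 FPKM in reconstituted cells and between 0 and 0.505 in the other 6 libraries (-2.63, adjusted p = 0.000312). KIT passed the filter through the reconstituted libraries alone, and without a filter its adjusted p was 0.000303. ALDH1A2, a retinoic acid-forming enzyme, had 130 and 135 FPKM in reconstituted and 36.9 and 38.9 in CBAP-KO cells (-1.78, adjusted p = 0.0265), a call lost without any 1 of these 4 libraries (adjusted p up to 0.111). TRIB2, a pseudokinase, rose in both sets, from 19.3 and 19.7 to 63.8 and 54.5 FPKM in the CRISPR set (1.55, adjusted p = 0.00258) and from 16.0 and 22.4 to 51.0 and 35.8 on knockdown (1.14, adjusted p = 0.0292). Its knockdown call was lost without sh-Ctrl replicate 1, sh-CBAP replicate 1 or any CRISPR-set library (adjusted p up to 0.0915). CDK6, a kinase of the cell cycle, had 79.5 and 78.3 FPKM in reconstituted and 112 and 120 in CBAP-KO cells (0.55, adjusted p = 0.00103). In the shRNA set CDK6 had 99.7 and 102 FPKM in sh-Ctrl and 93.5 and 101 in sh-CBAP cells (-0.06, adjusted p = 0.564). Its changes differed between the sets by -0.61 (adjusted p = 0.00470), and the reconstituted libraries were the lowest. MYC, ETV6 and ARID5B were lower in CBAP-KO cells.

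Of the cofactors and inhibitors of the complex, 10 of 13 were analysed. limma called 0 of them on knockdown (12.3% of all genes), and 2 had an unadjusted p under 0.05 (30.3% of all genes). The CRISPR set had 1 call (49.9% of all genes), SIN3A, a co-repressor scaffold (0.49, adjusted p = 0.0291), which was lost without any 1 CRISPR-set library (adjusted p up to 0.122). The ID proteins, which sequester E proteins, varied widely within conditions of the shRNA set. ID1 had 46.4 and 115 FPKM in sh-Ctrl and 66.9 and 27.1 in sh-CBAP cells. In reconstituted cells ID1 had 144 and 138 FPKM, against 74.7 and 73.4 in CBAP-KO cells, a difference that did not pass the test (-0.92, SE 0.54, adjusted p = 0.206). The SE comes from the spread shared over all 4 conditions, so it includes the wide spread of ID1 in the shRNA set. The list's median was -0.21 on knockdown and -0.12 in the CRISPR set.

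Among paralogs of the members, 7 of 10 were analysed, with 1 called on knockdown (median 0.05, 12.3% of all genes) and 4 in the CRISPR set (median 0.38, 49.9% of all genes). GATA2, the GATA factor of progenitors, rose in both sets from a low level. It had 0.885 and 1.13 FPKM in sh-Ctrl against 1.64 and 1.98 in sh-CBAP cells (0.49, adjusted p = 0.0478). In the CRISPR set it had 0.331 and 0.353 FPKM in reconstituted against 1.07 and 0.90 in CBAP-KO cells (0.56, adjusted p = 0.00946). GATA2 passed the filter, with a mean of 1.04 FPKM, only through its values in sh-CBAP cells. Without a filter its adjusted p was 0.0326 on knockdown and 0.00592 in the CRISPR set. Its knockdown call was lost without any 1 library other than sh-CBAP replicate 1 (adjusted p up to 0.126), and its CRISPR-set call without CBAP-reconstituted replicate 1 (adjusted p = 0.0524). RUNX2 was higher (0.85, adjusted p = 0.00746) and RUNX3 lower (-0.66, adjusted p = 0.0328) in CBAP-KO cells. The RUNX2 call was lost without CBAP-reconstituted replicate 2 (adjusted p = 0.0545), and that of RUNX3 without any 1 CRISPR-set library (adjusted p up to 0.127). MYBL2, the MYB relative of cycling cells, was lower (-0.32, adjusted p = 0.00404), with -0.10 under quantile normalization (adjusted p = 0.0963).

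Of E-protein target genes of thymocytes, 8 of 9 were tested, and limma called 0 on knockdown (median -0.14, 12.3% of all genes), where 2 had an unadjusted p under 0.05 (30.3% of all genes). In the CRISPR set 4 were called (median -0.01), where 49.9% of all genes were. The recombinase genes RAG1 and RAG2 were lower in CBAP-KO cells. RAG1 had 31.5 and 31.1 FPKM in reconstituted and 1.20 and 1.29 in CBAP-KO cells (-3.85, adjusted p = 0.00884), and was lost without either reconstituted library (adjusted p up to 0.0524). RAG2 had 27.5 and 29.7 against 1.04 and 1.40 FPKM (-3.74, adjusted p = 0.00545). In sh-Ctrl cells RAG1 was at 22.1 FPKM in replicate 1 and 5.34 in replicate 2, so these libraries differed strongly. HES1, a NOTCH target, was lower (-1.15, adjusted p = 0.00365) in CBAP-KO cells, with 8.24 and 8.61 FPKM against 20.5 and 19.5 in reconstituted cells. Its knockdown change had the other sign and did not pass (0.66, adjusted p = 0.0679), from 2.93 and 4.12 to 5.14 and 7.19 FPKM. The changes of HES1 differed between the sets by 1.81 (adjusted p = 0.00476). CD3E was higher (0.91, adjusted p = 0.0469), with 1022 FPKM in CBAP-KO replicate 2 and 530 in replicate 1, and was at 1.39 without CBAP-KO replicate 1. The call was lost without CBAP-KO replicate 2 (0.44) or any of the other libraries except CBAP-KO replicate 1 (adjusted p up to 0.163).

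Of the other T-lineage transcription factors, 9 were tested, and 3 were called on knockdown (median -0.03, 12.3% of all genes) and 4 in the CRISPR set (median 0.28, 49.9% of all genes). TCF7, the WNT-linked factor of early T cells, was called in opposite directions in the sets. It had 235 and 213 FPKM in sh-Ctrl and 121 and 138 in sh-CBAP cells (-0.79, adjusted p = 0.00665). In the CRISPR set it had 50.1 and 51.2 FPKM in reconstituted and 178 and 181 in CBAP-KO cells (1.81, adjusted p = 5.19e-05), and the changes differed by -2.59 (adjusted p = 8.70e-05). FLI1, an ETS factor that shares enhancers with TAL1 and RUNX1, rose in both sets (0.77, adjusted p = 0.00540, and 0.49, adjusted p = 0.00315) and was called in 19 of 19 alternatives in each. IKZF1 was lower on knockdown (-0.32, adjusted p = 0.0136), a call lost without either reconstituted library (adjusted p up to 0.0568). GFI1 was higher in CBAP-KO cells (0.91, adjusted p = 0.00618).

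Of the factors of other T-ALL subgroups, 2 of 9 passed the filter. HHEX, a homeobox factor of early precursors, rose on knockdown, from 0.636 and 0.705 FPKM in sh-Ctrl to 4.55 and 5.44 in sh-CBAP cells (1.84, adjusted p = 0.000786). In the CRISPR set it was at 2.38 and 2.42 FPKM in reconstituted cells and at 0.0219 and a listed 0 in CBAP-KO cells (-1.75, adjusted p = 0.000130). NKX2-1, a homeobox oncogene of another T-ALL subgroup, had 17.1 and 17.9 FPKM in reconstituted cells and between 1.33 and 2.35 in the other 6 libraries (-2.87, adjusted p = 0.000170). The medians of this list, 0.90 on knockdown and -2.31 in the CRISPR set, rest on these 2 genes. A pseudocount of 0.1 in place of 1 moved the changes of low genes, to 3.64 for LYL1 and 2.72 for HHEX on knockdown and to -4.50 for HHEX and -4.33 for KIT in the CRISPR set, and ended the knockdown calls of GATA2 and TMEM102 (adjusted p = 0.0635 and 0.118) and the CRISPR-set call of CD3E (adjusted p = 0.0500303). The call of GATA2 was also lost at a pseudocount of 0.5 (adjusted p = 0.0524), and that of CD3E without a filter (0.0519) and with robust empirical Bayes (0.0595).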

How the data were processed

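RNA of 8 Jurkat libraries, 2 per condition, had been sequenced by the authors as 100-bp paired-end reads and aligned to hg19 with TopHat and Bowtie, with CASAVA 1.8 named in the submitters' processing notes. The deposited table holds FPKM values that the authors estimated with cuffdiff. The version of Cufflinks, the annotation and the scaling of libraries are not given in the sources used here. Conditions were taken from the labels, and no depth was available. From the FPKM, log2(FPKM + 1) was fitted with limma 3.58.1 (R 4.3.3, empirical Bayes with trend) for genes with a mean of at least 1, as 4 condition means over all 8 libraries, or as 2 classes. Changes on this scale understate those of low genes. The limma step was also run on simulated normal values with the same spread per gene in every condition. That run cannot show how the test behaves where the spread differs between conditions. Alternatives concerned the pseudocount (0.1, 0.5), filter, scaling, trend, listed zeros, replicate block, set covariate and single libraries left out.

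The genes, lists and tests were chosen with earlier results of these data known. All members were named, with TMEM102, the 4 genes at most per list with the largest change among those called in either set, and the 3 genes most like TAL1, GATA3, RUNX1 and MYB. A further gene of the list of TAL1 target genes is not reported here, so its counts and median are over the other 7. ID1, ARID5B, ETV6, MYC and the cell markers were named after their values were seen. GENCODE release 44 lifted to GRCh37 gave positions. Python 3.11.15, pandas 2.3.3 and matplotlib 3.10.9 were used.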

Additional observations from a re-analysis of the deposited data

Results flagged for a closer look

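Of the 8 genes, 3 changed differently in the 2 sets by the test of the difference itself (limma, Benjamini-Hochberg adjustment over all tested genes). Values are knockdown changes less those of the CRISPR set. The difference was 0.47 for TAL1 (adjusted p = 0.0204), 2.07 for LYL1 (adjusted p = 0.00330) and -0.89 for RUNX1 (adjusted p = 0.000792), where 33.8% of all tested genes were called.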

How the results depend on the processing

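On knockdown 1 of 8 genes was called with a filter at a mean FPKM of at least 5, which removed LYL1, and between 1 and 3 without single libraries, against 2 as reported. Leaving out single libraries gave between 2 and 6 in the CRISPR set, between 2 and 6 for the difference between the sets and 0 for the 2 classes, for which the set as a covariate gave 1. The calls over all tested genes also varied widely without single libraries, so these ranges cannot be read as specific to the 8 genes. On knockdown, values without single libraries were -0.0329 to 0.0416 for RUNX1, with -0.0064 without sh-CBAP replicate 2. For TAL1 they were -0.0403 to 0.127, with -0.0037 without sh-CBAP replicate 1. The difference between the sets for GATA3 was -0.0463 under quantile normalization, -0.0085 under upper-quartile scaling and between -0.0333 and 0.0977 without single libraries. For the 2 classes, TCF12 was at 0.0752 under quantile normalization and between -0.194 and 0.0747 without single libraries, and MYB at 0.654 with listed zeros set to missing and between -2.04 and 0.654 without single libraries. The cause was not tested. Of the single-gene values under alternatives, 563 kept their direction and call, 15 gained a call, 19 lost it and 11 changed sign. Of all genes called on knockdown, 414 of 1408 were higher, against 845 of 1675 under quantile normalization and 720 of 1669 under upper-quartile scaling. In the CRISPR set 2734 of 5697 were higher, against 3610 of 6183 under upper-quartile scaling, and for the 2 classes 24 of 71, against 94 of 173 and 102 of 198.

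The labels share replicate numbers, and the deviations of same-numbered libraries correlated at 0.146 and 0.0239, so the numbers were not taken to pair samples. With the replicate block, 1 of 8 genes was called on knockdown (GATA3 at adjusted p = 0.0509), the knockdown calls of TRIB2, GATA2 and TMEM102 were lost (adjusted p = 0.0604, 0.0799 and 0.0542), and over all genes 776 in place of 1408. The sequencing depth, the error of low values such as LYL1 and the origin of listed zeros are unknown, and 2 libraries per condition limit the precision.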
